A study of Mus musculus with 51 samples.

Results

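The genes described here are 8 markers of cholangiocytes, the epithelial cells of the bile ducts, and of hepatic progenitor cells: Krt7, Krt19, Sox9, Epcam, Prom1, Cd24a, Spp1 and Pkhd1. They were taken by name from a matrix of 33773 gene symbols, and all 8 were found. Their levels, in RPKM (read counts scaled to gene length and library size), were read in 21 mouse RNA libraries of 6 groups. The hepatocyte libraries comprised 4 labelled FoxA triple null, 4 labelled FoxA3 null, 3 labelled FoxA1/A2 lox and 4 labelled FoxA1/A2 Cre alfp, and the liver libraries comprised 2 labelled HNF4a control and 4 labelled HNF4a null. The triple null mice carried FoxA1L/L, FoxA2 L/L and FoxA3-/- alleles and received, at 8 weeks of age, adeno-associated virus 8 with Cre recombinase driven by the hepatocyte-specific Tbg promoter. The FoxA3 null controls carried the same alleles and received, also at 8 weeks of age, a virus expressing GFP. FoxA3 was therefore absent from both groups. The lox animals carried the floxed alleles without a deletion, FoxA1 and FoxA2 were deleted with the Alfp Cre transgene in the Cre alfp animals, and the ages of both groups are not given in the sources used here. The livers labelled HNF4a null are described as deleted for Hnf4a in adulthood, but their Hnf4a level, given below, was higher than in the control livers. That level covers the whole gene and does not show whether a deleted exon is present. The genotype of the control livers and the ages of both liver groups are not stated here. The labels do not say whether replicates were separate animals, so p-values measure the spread between these samples, which may be technical.

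Cholangiocytes and hepatocytes descend from a common fetal progenitor, the hepatoblast. Keratins 7 and 19, the transcription factor Sox9 and the adhesion molecule Epcam mark the biliary lineage in adult liver, and some of these genes also appear in cells of the ductular reaction that follows liver injury. Adult hepatocytes normally hold little of these transcripts, while osteopontin (Spp1) is also made by macrophages and activated stellate cells, and Cd24a by several blood cell types.

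Promoter sequence is shown for the 3 members with the highest levels in the livers labelled HNF4a null, all of which rose there. Sox9, Krt19 and Cd24a had no entry. Each is the 250 bases before the most upstream RefSeq start of the gene (build GRCm38.p6), written 5′ to 3′ on the strand of the gene. Capitals mark matches to 4 short motifs searched on both strands: TGTTTAC (FoxA), CAAAGTCCA (HNF4), GGAATG (TEAD) and TGGGAA (RBPJ, the DNA-binding factor of Notch signalling). The motifs were chosen after the values were seen.
Pkhd1, chr1:20618058-20618307, minus strand: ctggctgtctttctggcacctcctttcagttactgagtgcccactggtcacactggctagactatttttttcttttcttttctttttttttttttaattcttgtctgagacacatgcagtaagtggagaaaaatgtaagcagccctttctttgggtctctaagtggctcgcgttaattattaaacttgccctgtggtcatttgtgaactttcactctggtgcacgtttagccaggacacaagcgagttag
Prom1, chr5:44101737-44101986, minus strand: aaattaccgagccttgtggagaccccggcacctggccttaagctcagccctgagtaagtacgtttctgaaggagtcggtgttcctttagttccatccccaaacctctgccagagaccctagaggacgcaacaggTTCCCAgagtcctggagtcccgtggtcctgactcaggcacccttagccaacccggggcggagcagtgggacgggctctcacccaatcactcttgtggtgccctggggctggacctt
Spp1, chr5:104434861-104435110, plus strand: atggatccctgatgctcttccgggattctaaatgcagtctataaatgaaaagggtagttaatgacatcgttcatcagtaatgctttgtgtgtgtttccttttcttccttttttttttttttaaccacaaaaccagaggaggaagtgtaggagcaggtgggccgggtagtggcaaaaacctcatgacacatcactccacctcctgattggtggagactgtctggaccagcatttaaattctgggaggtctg
The Prom1 sequence held the RBPJ letters on the opposite strand (TTCCCA, starting 116 bases before the start), which 21.6% of 32851 promoters of this length held. The Pkhd1 and Spp1 sequences and the promoters of Krt7 and Epcam held none of the 4 motifs. The other 3 motifs were present in 3.17% (FoxA), 0.384% (HNF4) and 12.6% (TEAD) of all promoters. Promoters of 5 of the 8 members were matched by symbol.

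Depth is not stated in RPKM, but the smallest steps between low values gave relative depths of 2.01 to 4.07 for hepatocyte libraries and 1 to 1.1 for liver libraries, with the shallowest library set to 1. The lox and Cre alfp libraries (2.24 to 4.07) were mostly deeper than the FoxA3 null and triple null libraries (2.01 to 2.42), a split that runs with FoxA3 genotype and cannot be told apart from it. Foxa3 was at 0.0114 RPKM or less in all 8 libraries labelled FoxA3 null or triple null and between 19 and 34.5 in the lox and Cre alfp libraries. Foxa2 fell in the triple null libraries to 0.366 ± 0.103 RPKM (SD, n = 4) from 13.7 ± 4.58 in FoxA3 null (n = 4). Foxa1 fell by less, to 3.28 ± 0.283 RPKM in triple null from 8.5 ± 1.85 in FoxA3 null (log2 difference -1.13, limma adjusted p = 0.00011), with means of 6.72 ± 1.81 RPKM in the 3 lox and 1.24 ± 0.1 RPKM in the 4 Cre alfp libraries. The triple null libraries thus kept Foxa1 transcript, 0.94 above Cre alfp on the log2 scale (adjusted p = 0.000403) and 0.82 below lox (-0.82, adjusted p = 0.00166), both short of a difference of 1, and the groups are named as labelled. Hnf4a was at 487 to 545 RPKM in the livers labelled HNF4a null and at 118 to 126 in the control livers. It was thus higher where the label says null, and directions in liver are therefore given for the libraries as labelled. A level over the whole gene does not show whether a deleted exon is present. Hepatocyte markers mostly ran the way the label says. Of 10 tested, 6 were called lower in the livers labelled HNF4a null, led by Serpina1a (-7.71), Asgr1 (-4.89) and Ttr (-3.71), and 1 higher. Over all 12434 genes tested in liver, 5.95% were called lower and 8.58% higher. An exchange of labels was not tested.

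**Figure D1:**
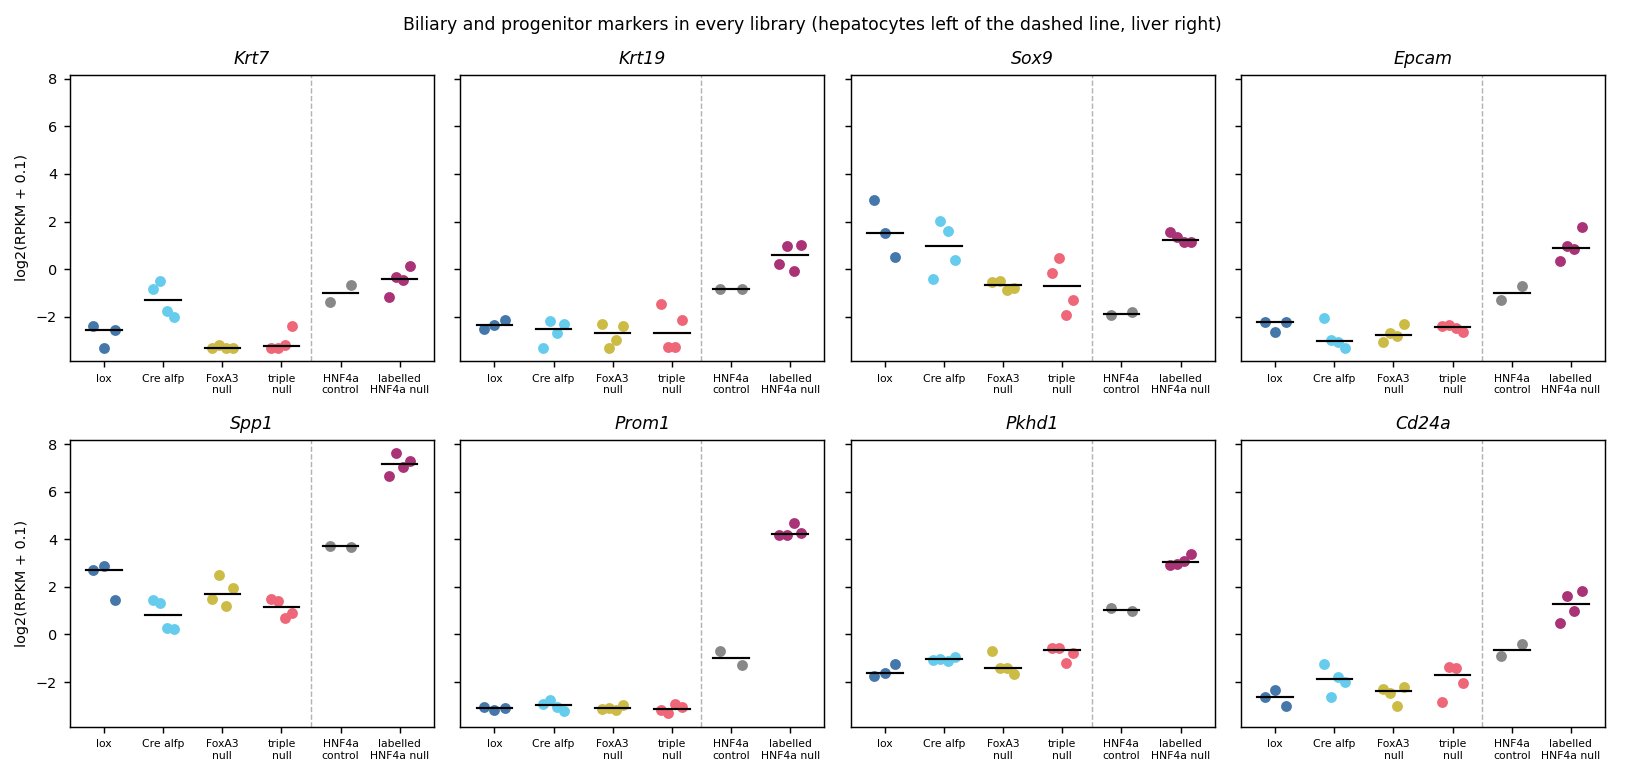
Level of each marker as log2(RPKM + 0.1) in every library, by group, with hepatocyte groups left of the dashed line, liver groups right of it and a line at the group median. The 4 libraries labelled HNF4a null lie above both control livers for every gene but Krt7, and the hepatocyte libraries lie low for every gene but Sox9 and Spp1.

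In hepatocytes, 6 of the 8 markers stayed under 1 RPKM in all 15 libraries. Spp1 (1.08 to 7.15 RPKM) and Sox9 (0.16 to 7.28 RPKM) were the exceptions and the members that passed the filter on low values (at least 1 RPKM in at least 3 libraries). The highest value of any other marker was 0.602 RPKM, for Krt7 in 1 Cre alfp library. For scale, the 10 hepatocyte defining markers summed to 22724 to 56162 RPKM in these libraries.

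The keratins of the biliary lineage, which build the intermediate filaments of duct cells, were close to 0 in hepatocytes. Krt19 was listed at 0 in 1 of 4 Cre alfp and 1 of 4 FoxA3 null libraries, and its other hepatocyte values ran from 0.00466 to 0.261 RPKM. The hepatocyte groups overlapped, with means of 0.0994 ± 0.0254 (SD, n = 3) in lox, 0.0987 ± 0.122 (n = 4) in triple null, 0.0689 ± 0.0534 (n = 4) in Cre alfp and 0.0556 ± 0.0498 (n = 4) in FoxA3 null. Both control livers were higher, at 0.462 and 0.464 RPKM, and the 4 livers labelled HNF4a null were higher again, at 1.07, 1.86, 0.844 and 1.90 RPKM.

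Krt7 differed between hepatocyte groups at levels under 1 RPKM. It was at 0.461, 0.602, 0.197 and 0.152 RPKM in the Cre alfp libraries and at 0.0888, 0 and 0.0715 in the lox libraries. It was listed at 0 in 3 of 4 FoxA3 null libraries (0.00988 in the other) and in 2 of 4 triple null libraries (0.011 and 0.0886 in the others). All 4 Cre alfp libraries lay above every other hepatocyte library, and the lox, triple null and FoxA3 null groups overlapped. Since Krt7 missed the filter, it was tested in a fit without one on log2(RPKM + 0.1): Cre alfp exceeded triple null (triple null minus Cre alfp -1.78, SE 0.33, adjusted p = 0.00234), and the difference from lox missed the threshold (1.49, SE 0.36, adjusted p = 0.0542). With a pseudocount of 1 the triple null difference was -0.39 (adjusted p = 0.00726), short of the minimum log2 difference of 1.

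Sox9, the transcription factor that marks duct cells and their precursors, was the one member lowest in the control livers. The lox libraries held 7.28, 2.75 and 1.33 RPKM and the Cre alfp libraries 0.65, 3.99, 2.93 and 1.2 RPKM. The FoxA3 null libraries held 0.585, 0.612, 0.438 and 0.479 RPKM and the triple null libraries 0.795, 1.29, 0.16 and 0.311 RPKM. The lox libraries all lay above the triple null and FoxA3 null libraries, while lox and Cre alfp overlapped, as did Cre alfp with triple null and triple null with FoxA3 null. The order of the means was lox (3.79 ± 3.11, n = 3), the libraries labelled HNF4a null (2.37 ± 0.363, n = 4), Cre alfp (2.19 ± 1.54, n = 4), triple null (0.638 ± 0.51, n = 4), FoxA3 null (0.528 ± 0.083, n = 4) and control liver (0.172 ± 0.0165, n = 2), and only FoxA3 null and control liver did not overlap among neighbours in it.

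Among the surface proteins, Epcam, an adhesion molecule of biliary epithelium, had hepatocyte means from 0.0484 ± 0.0646 RPKM in Cre alfp (n = 4) to 0.0942 ± 0.0313 in lox (n = 3), and all 4 hepatocyte groups overlapped their neighbours. Prom1, a pentaspan membrane protein (CD133) used to sort progenitors, was above 0.0498 RPKM in no hepatocyte library, the lowest such maximum of the 8. Cd24a, a small anchored glycoprotein, had means of 0.187 ± 0.119 RPKM in triple null, 0.18 ± 0.106 in Cre alfp and 0.0828 ± 0.0423 in FoxA3 null (n = 4 each), and of 0.063 ± 0.0369 in lox (n = 3). The neighbouring hepatocyte groups of Prom1 and Cd24a overlapped.

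Spp1, a secreted matrix phosphoprotein, was highest in the lox group among hepatocytes. Its lox libraries held 6.39, 7.15 and 2.66 RPKM, the Cre alfp libraries 2.65, 2.40, 1.12 and 1.08. The FoxA3 null libraries held 2.70, 5.61, 2.16 and 3.75 RPKM and the triple null libraries 2.68, 2.57, 1.51 and 1.78. In the order of means (lox, FoxA3 null, triple null, Cre alfp) every neighbouring pair overlapped, while the lox and Cre alfp ranges at its ends did not, by a narrow gap between 2.65 and 2.66 RPKM. Pkhd1, which encodes fibrocystin of the primary cilium and is mutated in recessive polycystic kidney and liver disease, ran from 0.199 to 0.579 RPKM. Its lox libraries (0.199, 0.228 and 0.32 RPKM) lay below all 4 Cre alfp libraries (0.37, 0.394, 0.367 and 0.416) and all 4 triple null libraries (0.574, 0.579, 0.33 and 0.49). The FoxA3 null libraries (0.518, 0.276, 0.278 and 0.219) overlapped both the triple null and the lox groups.

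**Figure D2:**
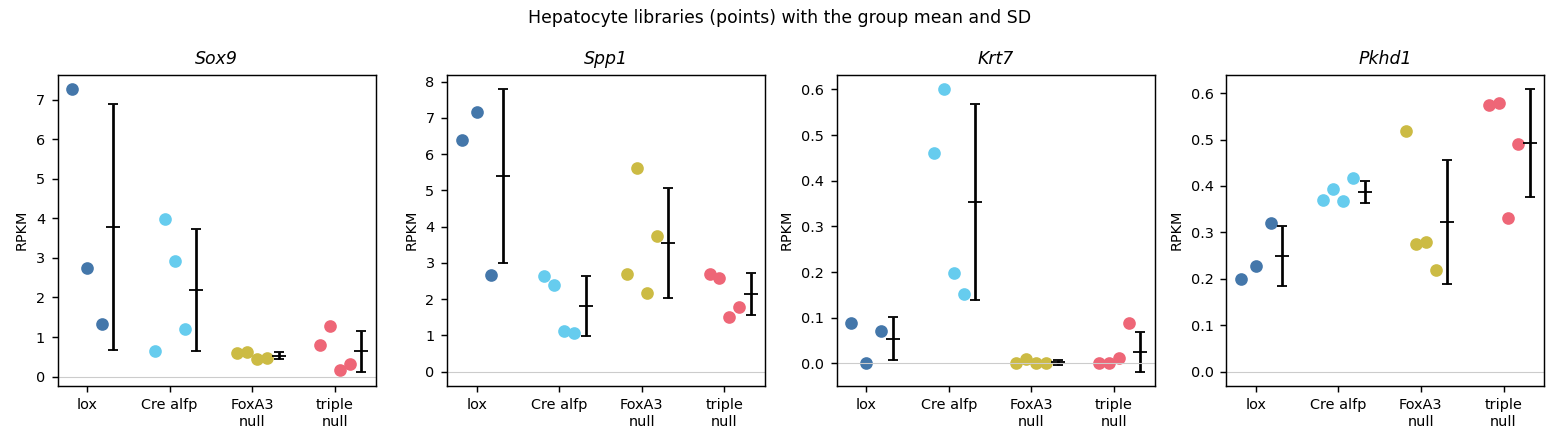
RPKM of Sox9, Spp1, Krt7 and Pkhd1 in the 15 hepatocyte libraries (points) with the group mean and SD beside them, on separate linear axes. Sox9 is below 1.3 RPKM in each triple null and each FoxA3 null library, and Krt7 is above 0.15 RPKM only in the Cre alfp libraries.

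Deletion of FoxA1 and FoxA2 on a FoxA3-null background, triple null against FoxA3 null, moved neither of the 2 markers tested past the threshold (limma, adjusted p under 0.05 and a log2 difference of at least 1). Of all 11500 genes tested, 8.11% were called, and the other 6 markers missed the filter. Spp1 differed by -0.50 (SE 0.29, adjusted p = 0.212) and Sox9 by 0.05 (SE 0.38, adjusted p = 0.941). Neither had an unadjusted p under 0.05. In the fit without a filter limma called 0 of 8, against 6.29% of 24886 genes, and Pkhd1 was the 1 member with an unadjusted p under 0.05 (0.51, SE 0.23, adjusted p = 0.172). The authors' deposited table listed 1 of the 8 for this comparison, Spp1, with a log2 fold change of -0.74 and an adjusted p of 0.0529, where 22.1% of listed genes were lower.

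Other genes of biliary epithelium changed in the same comparison. Of 32 such genes, 16 were tested, 4 rose and 1 fell, with a median difference of 0.19 against 0.05 over all genes. Over all 11500 genes tested, 4.17% were called higher and 3.95% lower. Car2, a carbonic anhydrase, rose from 2.19 ± 0.373 to 56.3 ± 5.51 RPKM (SD, n = 4 each; 4.17, adjusted p = 6.07e-09), and the keratin Krt23 rose from 1.55 ± 1.07 to 34.2 ± 18.2 RPKM (3.76, adjusted p = 6.14e-06). Krt8 (1.18) and Krt18 (1.10), the simple keratins that hepatocytes share with duct cells, rose too, and the water channel Aqp1 fell by 1.30. Krt8 reached 204 to 325 RPKM in the triple null libraries against 90.2 to 133 in FoxA3 null, while no triple null library exceeded 0.261 RPKM of Krt19 or 0.0886 of Krt7.

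**Figure D3:**
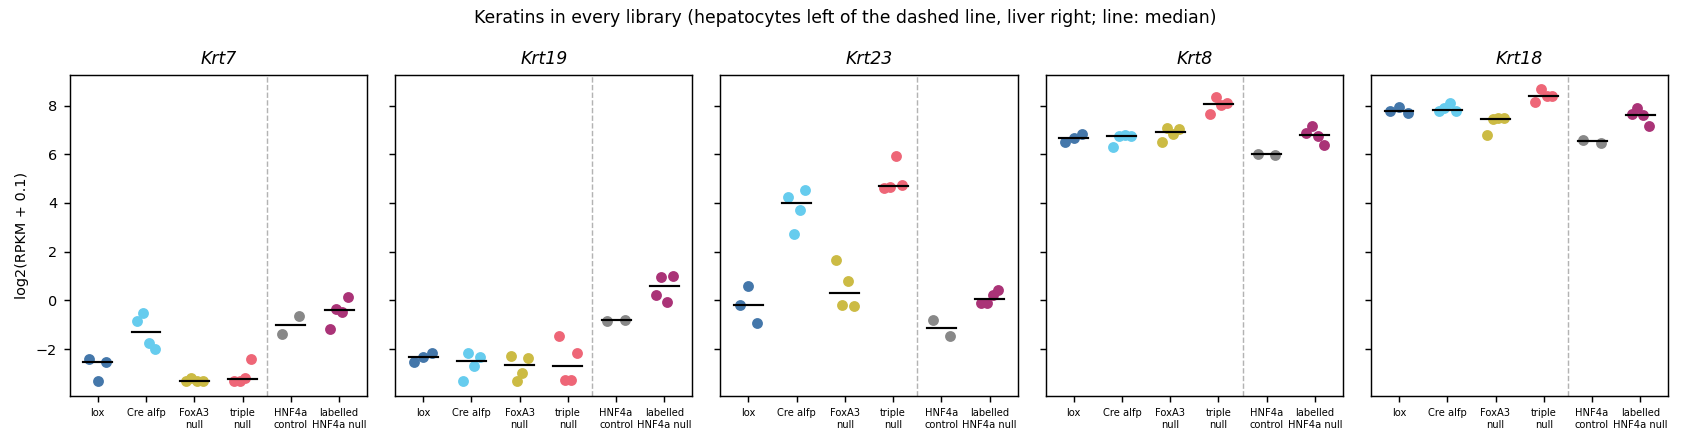
Level of 5 keratins as log2(RPKM + 0.1) in every library, with a line at the group median. Krt8, Krt18 and Krt23 are high in the triple null libraries, whereas Krt7 and Krt19 stay under 0.3 RPKM there and are highest in the libraries labelled HNF4a null.

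The lists of pathways that act on biliary fate gave single calls in this comparison, shares near the 8.11% called over all genes and so no result about the pathways. In the Notch pathway, which specifies duct cells, 1 of 9 tested genes of 18 was called, and the target Hes1 fell by 1.76 (19.1 ± 5.35 to 5.73 ± 4.55 RPKM, n = 4 each). In the Hippo and YAP list 1 of 13 was called, and Wwtr1, which encodes the coactivator TAZ, rose by 1.24. In the TGF beta list 1 of 10 was called, with Smad7, its feedback inhibitor, lower by 1.03, and among cilium genes 1 of 13, with Pkd2, which encodes polycystin-2, lower by 1.08. Of 7 tested fetal liver and progenitor genes 2 rose, the TWEAK receptor gene Tnfrsf12a (1.34) and Lgr5 (1.13). The medians were -0.02 for Notch, 0.11 for Hippo and YAP, -0.35 for TGF beta, 0.10 for cilium genes and 0.78 for fetal genes.

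Markers of other cells moved with these groups, in a comparison that called 4.17% of 11500 genes higher and 3.95% lower. Hepatocyte defining markers (6 of 10 called lower) summed to 22724 to 30756 RPKM in triple null and 50890 to 55901 in FoxA3 null. Among them Cyp2e1 went the other way, with means of 10654 RPKM in triple null and 6202 in FoxA3 null. Of 5 erythroid markers tested the globins Hba-a1 (1.79), Hbb-b1 (1.49) and Hba-a2 (1.33) were called higher, the last having passed the filter mainly through triple null, and Alas2, an enzyme of heme synthesis, fell by 4.29. Sinusoidal endothelium markers (3 of 10 tested called lower) summed to 10.7 to 22.8 RPKM in triple null and 37.0 to 58.9 in FoxA3 null, and stellate cell markers (2 of 5 lower) to 7.61 to 26.8 and 27.7 to 37.7. Neutrophil and monocyte markers summed to 9.77 to 112 RPKM in triple null and 0.884 to 2.12 in FoxA3 null. The 2 of 10 that were tested, S100a8 and S100a9, were called higher and had passed the filter mainly through the triple null libraries where they were high. In every triple null library 1 of 10 was at 0, and in every FoxA3 null library 2 of 10. Kupffer cell markers overlapped (18.1 to 57.8 and 27.7 to 37.7, with 0 of 10 called), lymphocyte markers summed to 0.33 to 1.72, and mesothelium markers to at most 0.112. The part of these cells in the marker values was not tested, and in bulk RNA fewer cells of a type and less RNA per cell cannot be told apart.

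With FoxA3 present, deletion of FoxA1 and FoxA2, Cre alfp against lox, lowered Spp1 by 1.15 (SE 0.31, limma adjusted p = 0.0473), the only called member of the 2 tested, in a comparison that called 2.38% of 11500 genes. The call was lost when no filter was applied (adjusted p = 0.111), when medians were scaled (0.0584) and without lox 1 (0.2), lox 2 (0.184) or any 1 of the 4 Cre alfp libraries (0.0511 to 0.122), and held without lox 3 (0.0113). Sox9 differed by -0.52 (SE 0.41, adjusted p = 0.568), and by -0.94 to -0.027 when each library was left out. Of the 8 members, 3 had ranges that did not overlap, Krt7 and Pkhd1 higher and Spp1 lower, against 13.4% of 23958 genes detected in either group. In the fit without a filter 0 of 8 were called, against 1.22% of genes, and Krt7 and Spp1 had an unadjusted p under 0.05.

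In the same comparison 3 of 16 tested biliary genes rose and none fell: Krt23 (3.03), the bile acid transporter gene Slc10a2 (1.66) and Car2 (1.05). Over all 11500 genes tested, 1.29% were called higher and 1.1% lower. The Notch ligand gene Dll1 rose by 1.08, the 1 called of 9 Notch genes, and no gene of the Hippo and YAP, TGF beta, cilium or fetal lists was called by limma. Medians were 0.40 for TGF beta, 0.30 for fetal, 0.11 for biliary, 0.08 for Notch, -0.0033 for Hippo and YAP and -0.12 for cilium genes, against 0.02 over all genes. Kupffer cell markers summed to 9.60 to 54.8 RPKM in lox and 31.2 to 93.9 in Cre alfp, with a median log2 difference of 0.78 and 9 of 10 above 0, and their part in the Spp1 value was not tested. Of 5 erythroid markers Hbb-b1 rose from 0.794 ± 0.281 to 3.94 ± 0.774 RPKM (1.46) and Alas2 fell from 84 ± 4.96 to 14.9 ± 7.47 (-2.54), with a list median of 0.30, and their part was not tested either. The difference between both deletion effects, without minus with FoxA3, was 0.57 for Sox9 (SE 0.56, adjusted p = 0.531; 0.077 to 0.99 with each library left out). For Spp1 it was 0.65 (SE 0.43, adjusted p = 0.327; 0.44 to 1.02 with each library left out). Neither was called or had an unadjusted p under 0.05, where 6.82% of genes were called, and without a filter 0 of 8 were, against 3.48% of genes, with Krt7 at -1.25 the 1 member with an unadjusted p under 0.05 (adjusted p = 0.176). Of the biliary list, Car2 (3.12), Krt8 (1.19) and Krt18 (1.03) passed the test of this difference with a positive sign and Aqp1 with a negative one (-2.35). Cell type markers moved in this difference too. Called with a negative sign were 4 of 10 hepatocyte, 3 of 10 sinusoidal and 2 of 5 stellate markers, and Alas2 (-1.75). S100a8 and S100a9 were called with a positive sign. Kupffer cell markers had a median of -0.78 with 1 of 10 above 0. The part of these markers in this difference was not tested. The deletions also differed in Cre source, an Alfp Cre transgene with FoxA3 present and a virus at 8 weeks of age without FoxA3. Foxa1 remained at a mean of 3.28 RPKM in triple null and 1.24 in Cre alfp. FoxA3 status, Cre source and remaining Foxa1 cannot be told apart in this difference.

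In the libraries labelled triple null against those labelled lox, Sox9 was lower by 1.40 on the log2 scale (-1.40, SE 0.41, -1.53 relative to the median of all genes, limma adjusted p = 0.0144), the 1 called of the 2 members tested, where 13.5% of 11500 genes were called. Sox9 passed the filter mainly through the groups where it was high (1 RPKM or more in 3 of 3 lox, 3 of 4 Cre alfp, 1 of 4 triple null and 0 of 4 FoxA3 null libraries), so the fit without a filter is given too (-2.37, SE 0.71, adjusted p = 0.0325). Spp1 was lower by 0.96 on the log2 scale (-0.96, SE 0.31, adjusted p = 0.0237), short of the minimum difference. Without lox 1, which held the highest Sox9 level, the Sox9 difference was -0.90 and its adjusted p 0.0888. FoxA3 null against lox gave a like value for Sox9, -1.45 (SE 0.41, -1.55 relative to the median, adjusted p = 0.0164; without lox 1 -0.95 and 0.0919), where 7.19% of genes were called. In the fit without a filter it was -2.32 (SE 0.71, adjusted p = 0.0478), the 1 called of 8, against 5.51% of genes. With the filter, Spp1 differed by -0.47 in FoxA3 null against lox (SE 0.31, limma adjusted p = 0.259) and was not called. These comparisons share the lox libraries, and both set groups of different FoxA3 genotype and depth against each other. The triple null and FoxA3 null mice also received a virus at 8 weeks of age. No virus or age is stated here for the lox animals, so genotype, virus, age and depth cannot be told apart. Stab1, an endothelial receptor gene, was the 1 of 10 sinusoidal markers called in FoxA3 null against lox, and 6 of 10 were called lower in triple null against lox. The latter comparison also called 5 of 10 hepatocyte markers lower, S100a8 and S100a9 higher, 3 of 5 erythroid markers higher and Alas2 lower (-5.39), and Alas2 was lower in FoxA3 null against lox too (-1.10). The part of these markers in the Sox9 values was not tested.

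Against lox, Pkhd1 was higher in triple null by 0.76 in the fit without a filter (SE 0.24, adjusted p = 0.0441), short of the minimum difference, and 1 of 8 members was called there, Sox9, against 10.1% of genes. In the authors' deposited table of triple null against the control without deletion, 2 of the 8 members were listed, Sox9 at a log2 fold change of -3.04 (adjusted p = 0.000961) and Spp1 at -1.54 (adjusted p = 9.57e-05). There 25.9% of listed genes were lower at an adjusted p under 0.05. Of the biliary list 4 of 16 rose and 1 fell here, led by Car2 (4.31), Krt23 (4.15) and the lower Cdh1 (-1.46), which encodes E-cadherin. In the other lists Pkd2 fell by 1.77 (1 called of 13 cilium genes tested) and Hes1 by 1.37 (1 of 9 Notch genes). Wwtr1 rose by 1.81 (1 of 13 Hippo and YAP genes). Of 10 TGF beta genes 1 rose, Tgfbr2 (1.38), and 1 fell, Skil (-1.01). Over all genes 13.5% were called, and these counts are no result about the pathways. Tnfrsf12a (2.00) and Tbx3 (1.27) rose and Peg3 fell by 1.73 among 7 fetal genes. Medians were 0.81 for fetal, 0.40 for biliary, 0.24 for both Notch and TGF beta, 0.22 for Hippo and YAP and -0.34 for cilium genes, against 0.13 over all genes.

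Triple null against Cre alfp called neither Sox9 (-0.88, SE 0.38, adjusted p = 0.0796, unadjusted p = 0.0374) nor Spp1 (0.19, SE 0.29, adjusted p = 0.631) by limma, where 10.3% of genes were called. Sox9 passed with the filter and a pseudocount of 0.1 (-1.63, adjusted p = 0.0485) and without Cre alfp 1 (-1.15, adjusted p = 0.0314). It was not called at a pseudocount of 0.1 without the filter (-1.63, SE 0.66, limma adjusted p = 0.109). In the fit without a filter 1 of 8 members was called, Krt7 as given above, against 8.19% of genes. In the authors' deposited table Sox9 stood at a log2 fold change of -2.15 (unadjusted p = 0.00433) and Spp1 at 0.07 (unadjusted p = 0.838), where 28.3% of genes were lower at an unadjusted p under 0.05, with the other 6 members not listed. Of the 16 biliary genes 3 rose and 3 fell, led by Car2 (3.26), Aqp1 (-1.76) and Cdh1 (-1.65). Among the other lists Hes1 fell by 1.76 (1 called of 9 Notch genes tested) and Wwtr1 rose by 1.49 (1 of 13 Hippo and YAP genes). These shares lie near the 10.3% over all genes and are no result about the pathways. Of 7 fetal genes Tnfrsf12a (2.15) and Tbx3 (1.22) rose and Peg3 (-2.31) and Cd44 (-1.01) fell. Sinusoidal markers were lower here as well (7 of 10 called, 10.7 to 22.8 RPKM in triple null and 27.2 to 96.0 in Cre alfp). Of hepatocyte markers 3 of 10 were called lower, as was 1 of 5 stellate markers. S100a8, S100a9 and Hba-a2 (1.77) were called higher and Alas2 lower (-2.85), and Kupffer cell markers had a median of -0.75 with 1 of 10 above 0. The part of these markers was not tested. The triple null and Cre alfp groups differed in FoxA3 genotype, Cre source and depth, which cannot be told apart here.

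In liver, Prom1, Sox9, Spp1, Epcam, Cd24a and Pkhd1 rose in the livers labelled HNF4a null. All 8 had a higher mean there than in the control livers, and 7 of 8 had ranges that did not overlap, where 31.5% of 26323 detected genes, and 52.6% of the 12434 past the filter on low values, lay wholly higher. The median of all genes was itself 0.34 higher on the log2(RPKM + 1) scale, so differences are also given relative to it. Pkhd1 and Spp1 passed the filter on low values in both groups, Krt19, Sox9, Epcam, Prom1 and Cd24a passed through the libraries labelled HNF4a null alone, and Krt7 did not pass. Members other than Pkhd1 and Spp1 are therefore given from the fit without a filter on log2(RPKM + 0.1), where the median of all genes was 0.17 higher.

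Prom1 was at 17.9, 17.8, 25.9 and 18.9 RPKM in the livers labelled HNF4a null and at 0.514 and 0.312 in the control livers. The ranges lay far apart, and the means differed 48.8-fold (SE 12.8; log2 difference 5.31, SE 0.23, 5.14 relative to the median, limma adjusted p = 0.000347). Spp1 was at 101, 198, 130 and 158 RPKM against 13.2 and 12.7, an 11.3-fold difference (SE 1.59; on log2(RPKM + 1) 3.36, SE 0.25, relative 3.02, adjusted p = 0.000112). With these levels Spp1 was the most abundant of the 8 per length in both liver groups.

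Pkhd1 was at 7.52, 7.72, 8.49 and 10.2 RPKM against 2.04 and 1.88, a 4.33-fold difference (SE 0.356; on log2(RPKM + 1) 1.67, SE 0.13, relative 1.34, adjusted p = 0.000169). Sox9 was at 2.87, 2.42, 2.08 and 2.13 RPKM against 0.16 and 0.183, a 13.8-fold difference (SE 1.42; without a filter 3.18, SE 0.21, relative 3.01, adjusted p = 0.00084). The calls of Spp1 and Pkhd1 were lost in no alternative run, and leaving out each library in turn gave 3.20 to 3.52 for Spp1 and 1.59 to 1.72 for Pkhd1.

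Epcam was at 1.17, 1.85, 1.69 and 3.28 RPKM against 0.305 and 0.507 (log2 difference without a filter 1.99, SE 0.44, relative 1.82, adjusted p = 0.0285). Cd24a was at 1.29, 2.96, 1.87 and 3.49 RPKM against 0.435 and 0.666 (1.87, SE 0.45, relative 1.70, adjusted p = 0.0363). Both groups of libraries stayed apart for both genes. On log2(RPKM + 1) with the filter both were called (1.05, adjusted p = 0.0157, and 1.09, adjusted p = 0.017), but both calls were lost without the filter at that pseudocount (adjusted p = 0.0588 and 0.0648), under median scaling (0.78, adjusted p = 0.0539, and 0.82, adjusted p = 0.0558) and under quantile normalization (adjusted p = 0.0609 and 0.0657). They were also lost without control ACTGATA (adjusted p = 0.0922 and 0.0968) or ATTCCTA (0.0581 and 0.0608) and without TAGCTTA (0.86 and 0.94, under the minimum), and that of Cd24a without GGCTAC (0.999).

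Krt19 missed the threshold, and Krt7 was at 0.341, 0.688, 0.624 and 1.00 RPKM against 0.283 and 0.532, so that its groups overlapped. In the fit without a filter, which tested all 8, 6 of 8 were called higher and 0 lower, where 7.42% of 26323 genes were called higher and 3.77% lower. Krt19 (1.36, adjusted p = 0.0629) and Krt7 (0.56, adjusted p = 0.437) were the members not called. On log2(RPKM + 1) with the filter, which Krt19 passed through the livers labelled HNF4a null alone, its difference was 0.70 (adjusted p = 0.0358), called only where no minimum difference was set, and with the filter and a pseudocount of 0.1 it was called (1.36, adjusted p = 0.0232). The authors' deposited table listed 7 of the 8, with log2 fold changes of 5.17 for Prom1, 3.38 for Sox9, 3.08 for Spp1, 1.78 for Epcam, 1.77 for Pkhd1, 1.72 for Cd24a and 0.97 for Krt19. In the authors' deposited table the first 6 had an adjusted p of 0.000236 or less and Krt19 one of 0.173, where 21.4% of listed genes were higher at an adjusted p under 0.05.

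**Figure D4:**
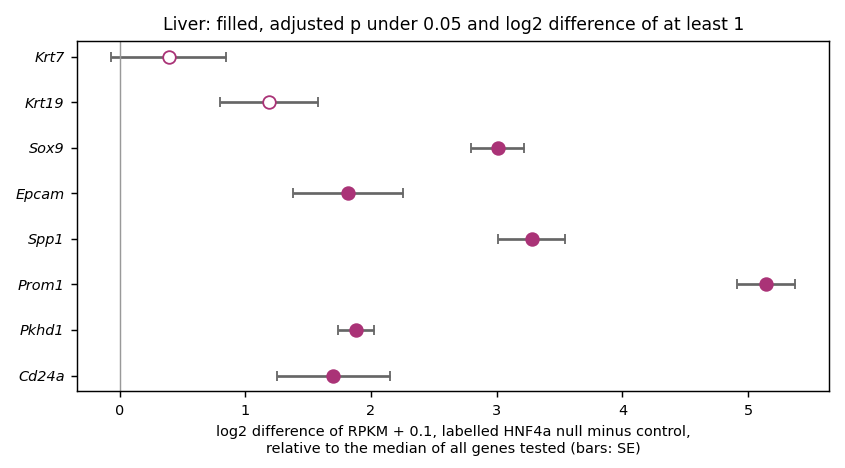
Difference of log2(RPKM + 0.1) between the 4 libraries labelled HNF4a null and 2 control livers for each marker, relative to the median of all 26323 genes tested, with bars for the SE. Filled points passed the threshold, and Krt7 and Krt19 did not.

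Other biliary genes rose in the same liver libraries. Of 22 tested of 32, 6 rose and 1 fell, with a median of 0.57 against 0.34 over all genes, where 8.58% of 12434 genes were called higher and 5.95% lower. Tm4sf4, a membrane protein gene, rose from 55.8 ± 8.85 (n = 2) to 271 ± 22.6 RPKM (n = 4; 2.26, adjusted p = 3.53e-05), Car2 from 4.01 ± 0.286 to 15.5 ± 1.5 RPKM (1.72, adjusted p = 6.83e-05), and Slc10a2 fell by 1.35 (adjusted p = 0.0248). The Notch and cilium lists had shares near those over all genes, which are no result about the pathways: 1 of 12 Notch genes rose, Notch1 (1.09), and 1 of 12 cilium genes, Kif3a (1.16). Of 9 fetal genes 2 were called, Tnfrsf12a (1.19) and H19 (1.61). H19 was at 0.319 and 0.537 RPKM in the control livers and 1.63 to 8.58 in those labelled HNF4a null, and like Bicc1 and Tspan8 of the biliary list it passed the filter through the latter alone, so these calls lend the counts no support. None of 16 Hippo and YAP genes and none of 9 TGF beta genes was called by limma. The medians of the TGF beta (0.086), Notch (0.21), cilium (0.29) and Hippo and YAP (0.32) lists lay under the median of all genes, and that of the fetal list (0.48) above it.

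Cell type markers stood as follows beside these liver values, where 8.58% of 12434 genes were called higher and 5.95% lower. Kupffer cell markers summed to 182 to 191 RPKM in the control livers and 223 to 277 in those labelled HNF4a null, with 1 of 12 called, Marco (1.82). Stellate cell and fibroblast markers summed to 117 to 132 and 148 to 171 RPKM (0 of 11 called), sinusoidal markers to 187 to 205 and 238 to 256 (0 of 12), and mesothelium markers to 2.04 to 2.06 and 1.75 to 2.08. Neutrophil and monocyte markers summed to 2.68 to 3.07 and 6.98 to 19 RPKM, with S100a8 and S100a9, which passed the filter through the livers labelled HNF4a null alone, called of 4 tested, and lymphocyte markers to 4.59 to 5.92 and 5.64 to 8.53. Erythroid markers summed to 291 to 326 and 187 to 567 RPKM, with Alas2 called lower (-2.85, adjusted p = 0.000195) of 5 tested. Hepatocyte markers summed to 29610 to 29865 RPKM in the control livers and 16621 to 21220 in those labelled HNF4a null, with 6 of 10 lower and 1 higher. No marker of the Kupffer, stellate, sinusoidal or mesothelium lists was at 0 in every library of a liver group, and the part of these cells in the values of the 8 genes was not tested.

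Over all 21 libraries the 28 pairs of members correlated with a median Pearson r of 0.847 (0.136 to 0.964) on log2(RPKM + 0.1), and over the 15 hepatocyte libraries with a median of -0.00671 (-0.572 to 0.653). Pairs with Sox9 were the lowest over all libraries, none above 0.301. The points share their group's tissue and genotype, and liver libraries were shallower than hepatocyte libraries, so these values describe groups more than single samples. Among 13240 genes, those most alike over the 21 libraries were Gm609 (r = 0.996), Pygo1 (0.992) and Epdr1 (0.99) for Prom1, and Cyfip2 (0.984), Pola1 (0.981) and Atr (0.98) for Pkhd1. For Spp1 they were Scara3 (0.979), 5330417C22Rik (0.964) and Zfp322a (0.963), and for Epcam H19 (0.978), Bicc1 (0.966) and Lamc3 (0.965). Krt19 was most like Hist1h4j (0.967), Gm11935 (0.942) and H19 (0.939), and Cd24a most like Zfyve16 (0.964), Ckap5 (0.963) and Csrp1 (0.961). Krt7 was nearest to Stambpl1 (0.927), A830080D01Rik (0.882) and Uty (0.881), and Sox9 to Riok1 (0.895), Psip1 (0.894) and Usp48 (0.875). Within the 15 hepatocyte libraries the same pairs ranged from -0.275 for Prom1 with Epdr1 to 0.937 for Sox9 with Psip1.

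Fetal and newborn levels of the 8 genes are covered by the authors' deposited tables, in which the adult libraries used are not given in the sources used here. In the authors' deposited table of hepatoblasts against adult hepatocytes, all 8 were listed and 6 were higher in hepatoblasts: Cd24a (log2 fold change 9.07), Prom1 (8.59), Krt7 (7.20), Epcam (6.13), Krt19 (5.91) and Sox9 (1.83, adjusted p = 0.0422). Spp1 was lower in hepatoblasts (-9.75, adjusted p = 5.06e-10) and Pkhd1 missed the threshold (-1.60, adjusted p = 0.0642) in the authors' deposited table, where 41.3% of genes were higher and 37.9% lower. In the authors' deposited table of newborn against adult hepatocytes 7 were listed, and 6 were higher in newborns: Prom1 (9.71), Cd24a (7.79), Spp1 (4.12), Epcam (3.68), Pkhd1 (2.31) and Krt19 (2.04). Sox9 was at 0.38 (adjusted p = 0.727) there, and 31.6% of listed genes were higher. Spp1 thus stood below adult hepatocytes in the hepatoblast table and above them in the newborn table.

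The adult triple null hepatocytes were also set against hepatoblasts in the authors' deposited table, and 6 of the 8 were lower in the triple null: Krt7 (-9.16), Prom1 (-8.77), Cd24a (-7.68), Epcam (-6.60), Krt19 (-6.22) and Sox9 (-4.88). Spp1 (8.21) and Pkhd1 (2.48, adjusted p = 0.000102) were higher in the triple null. In the authors' deposited table, 43.6% of listed genes were lower and 37.6% higher.

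**Figure D5:**
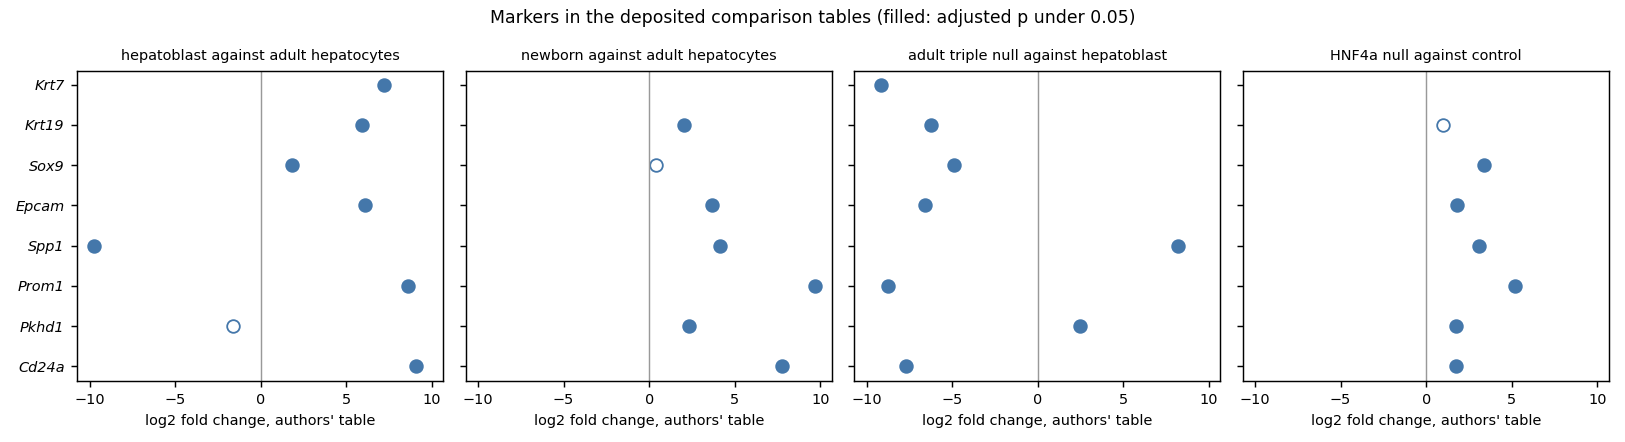
Log2 fold changes of the markers in 4 of the authors' deposited tables, with filled points at an adjusted p under 0.05 and unlisted genes left out. Prom1 and Cd24a are among the highest in hepatoblasts and newborns and low in adult triple null hepatocytes, and Spp1 goes the other way in hepatoblasts.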

How the data were processed

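Levels came from the matrix that the authors deposited in RPKM. Per the submitters' processing notes, reads were handled with build mm9, SAMtools, Cufflinks 2.2.1 and DESeq2, whose roles the sources used here do not give. Of values above 0, 2.9% were under 1e-06. The 21 columns naming a sample were used, and 9 columns matching none were not. The 7 deposited comparison tables give log2 fold changes and p-values by the authors, copied here. Which group is over which was read from Foxa3, which must be lower in triple null cells, for the tables of triple null against hepatoblasts and against the control without deletion, and the sign of the latter was turned. In the table of triple null against Cre alfp the last field was read as an unadjusted p-value, since its header is 1 field short.

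Genes at 1 RPKM or more in at least 3 hepatocyte or 2 liver libraries were tested with limma 3.58.1 (R 4.3.3; trended eBayes) on log2(RPKM + 1), in 1 fit of 15 hepatocyte and 1 of 6 liver libraries, with Benjamini-Hochberg adjustment over 11500 and 12434 genes. A gene was called at an adjusted p under 0.05 and an absolute log2 difference of at least 1. Fold changes on this scale understate those of low genes, so a fit without a filter and a pseudocount of 0.1 covered members under the filter. The scripts were tested on simulated data. Libraries of 1 group correlated at 0.976 to 0.991, and no 2 were identical. Every called member is named in its comparison. Of the biliary, pathway and fetal lists, up to 3 called genes with the largest difference are named. Of these lists, only called genes of the biliary list are named for the difference of both deletion effects. Others named, such as Krt8 and Krt18, were chosen after their values were seen. For each member the 3 most correlated genes are named. Members and lists were chosen with earlier results of these data known. Peaks were not used here.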

Additional observations from a re-analysis of the deposited data

Results flagged for a closer look

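In groups of 4 libraries, 32 sets of values were checked for a library far from the other 3, and chance gives such a flag in about 1 of 20. Prom1 was at 25.9 RPKM in the library GTGGCCA labelled HNF4a null, against 17.8 to 18.9 in the other 3. The other 3 still lay above both control livers (0.312 and 0.514 RPKM). Krt7 was at 0.0886 RPKM in triple null 4, against 0 to 0.011 in the other 3. In FoxA3 null 2, Krt7 stood at 0.00988 RPKM while the other 3 were listed at 0, a level at which a single read can set the value.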

How the results depend on the processing

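Of 457 alternative values for 31 results, 393 were classed as unchanged. A value for a single gene was classed so if it kept its direction and side of the threshold. A count of called members was classed so if it was equal or close to the main count, which took in all liver counts given below. The number of called members was 0 in every alternative for the difference of both deletion effects and for triple null against FoxA3 null. For Cre alfp against lox it went from 1 to 0 without a filter at either pseudocount, with median scaling and in a fit of those groups alone, and ranged from 0 to 1 when each library was left out. For triple null against lox it went from 1 to 2 with no minimum difference, a pseudocount of 0.1, median scaling or quantile normalization (Spp1 added), and from 0 to 2 when each library was left out. For triple null against Cre alfp it went from 0 to 1 with a pseudocount of 0.1 with or without the filter, and from 0 to 1 when each library was left out. For FoxA3 null against lox it ranged from 0 to 1 when each library was left out, and for liver it was 4 to 7 over all alternatives. Sox9 in triple null against FoxA3 null changed sign with a pseudocount of 0.1 with or without the filter (-0.049) and ranged from -0.13 to 0.20 when each library was left out. The cause of these changes was not tested. Where 1 control liver was left, it was assumed to vary like the other group. With the replicate block all 23 values kept their call (Spp1 in Cre alfp against lox -1.11, adjusted p = 0.0119), but replicate numbers share no more than a number, since same-numbered libraries correlated at -0.36 to 0.17 in their deviations. No paired analysis was possible in liver because its columns carry barcodes and no replicate number. Scalings, block and left-out libraries for Krt7 and Pkhd1 without a filter were added after the data were seen, and Krt7 in Cre alfp against lox passed without Cre alfp 4 (1.72, adjusted p = 0.0247). RPKM gives no counts, so members near 0 carry no counting interval.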
